A study of Mus musculus with 6 samples.

Results

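Mucins and 2 other proteins of the epithelial surface were followed in uteri whose epithelium had lost *Gp130*, the signal-transducing receptor subunit shared by the interleukin 6 family of cytokines, leukemia inhibitory factor included. The 10 genes were *Muc1*, *Muc4*, *Muc13*, *Muc15*, *Muc16*, *Muc20*, *Muc5b*, *Muc6*, *Cd24a* and *Epcam*, taken by symbol, and all 10 were present among the 56748 genes of the deposited tables. RNA-seq of whole uteri compared 3 control with 3 *Gp130* ecKO mice, all more than 8 weeks old and taken at 1600 h on day 4 of pregnancy. Their background is given as C57BL/6J in the methods of the study and as C57BL/6 in the labels. *Gp130* ecKO females carried 1 *Ltf*-iCre allele and floxed *Gp130* on both chromosomes. Control females are labelled WT, and the methods of the study describe its controls as floxed females without iCre or wildtype females, so some may carry floxed alleles. iCre is made from the *Ltf* gene, which is active in the uterine epithelium of adults and also in some immune cells, and stroma, muscle and vessels keep *Gp130*. Replicates are separate samples by their labels, and p-values measure the spread between these samples.

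Mucins are proteins with long stretches of serine, threonine and proline that are densely O-glycosylated. Cell surface mucins (*Muc1*, *Muc4*, *Muc13*, *Muc15*, *Muc16* and *Muc20*) stand on the apical membrane as part of the glycocalyx, while gel-forming mucins (*Muc5b* and *Muc6*) are secreted. In the uterus the glycocalyx is the first layer the blastocyst meets, and *Muc1* is known as an anti-adhesive cover that falls in the receptive mouse uterus. *Cd24a* encodes a short, glycosylated protein held in the membrane by a lipid anchor, and *Epcam* a homophilic adhesion molecule of the basolateral epithelial membrane that carries no mucin domain.

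That difference in protein type can be read in the coding sequences. In the canonical transcripts of GENCODE M39 on GRCm39, serine, threonine and proline made up 44.1% of the codons of *Muc1*, 46.0% of *Muc4*, 38.8% of *Muc16* and 42.8% of *Muc20*, where the median over 21770 canonical coding sequences was 18.7%. *Cd24a* held 25.0% in only 76 codons, and *Epcam* 15.6%. The richest run of 60 codons is shown for *Muc4*, *Muc16*, *Muc20* and *Epcam*, which were expressed here, and the whole coding sequence for *Cd24a*, with serine and threonine codons in capitals. They show how densely the mucins are built for O-glycans and how sparse such codons are in *Epcam*. The runs start at codon 52 in *Muc4*, 5984 in *Muc16*, 167 in *Muc20* and 113 in *Epcam*.
Muc4: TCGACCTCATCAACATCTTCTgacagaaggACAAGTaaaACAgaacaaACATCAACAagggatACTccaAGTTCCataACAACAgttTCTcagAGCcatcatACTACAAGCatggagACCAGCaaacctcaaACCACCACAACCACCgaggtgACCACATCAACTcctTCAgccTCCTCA
Muc16: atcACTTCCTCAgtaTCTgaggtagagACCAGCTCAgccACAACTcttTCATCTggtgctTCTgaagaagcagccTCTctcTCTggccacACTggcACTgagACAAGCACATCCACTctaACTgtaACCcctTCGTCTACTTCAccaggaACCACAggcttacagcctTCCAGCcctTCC
Muc20: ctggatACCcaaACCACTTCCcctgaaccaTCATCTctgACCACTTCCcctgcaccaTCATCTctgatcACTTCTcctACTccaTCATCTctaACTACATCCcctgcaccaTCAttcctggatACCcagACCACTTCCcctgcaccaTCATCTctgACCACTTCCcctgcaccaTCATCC
Cd24a: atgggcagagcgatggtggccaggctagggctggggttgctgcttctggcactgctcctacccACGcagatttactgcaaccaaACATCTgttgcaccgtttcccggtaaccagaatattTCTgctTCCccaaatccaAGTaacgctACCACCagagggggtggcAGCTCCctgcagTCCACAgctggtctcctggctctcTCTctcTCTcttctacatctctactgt
Epcam: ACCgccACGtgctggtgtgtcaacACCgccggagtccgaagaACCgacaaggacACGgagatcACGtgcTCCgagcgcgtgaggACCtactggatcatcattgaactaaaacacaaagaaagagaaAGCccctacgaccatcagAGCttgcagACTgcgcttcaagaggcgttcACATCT
Of the 60 codons, 37 in *Muc4*, 32 in *Muc16* and 31 in *Muc20* were for serine or threonine, against 13 in *Epcam*. *Cd24a* had 14 in its 76 codons. Part of the coding sequence of *Muc4* also repeated itself. In its best-matching stretch, 85.5% of the residues matched at a period of 124 codons, the best of the periods searched.

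Expected counts per uterus summed to between 13960748 in control 3 and 25906443 in control 2. Levels are given as CPM, read counts relative to the library size after TMM scaling, in the order of replicates 1, 2 and 3, and per transcript length as the deposited TPM. Fold changes come from edgeR's quasi-likelihood test over 16605 genes that passed its filter on low counts, with Benjamini-Hochberg adjustment, and a gene was called at an adjusted p under 0.05 and more than 2-fold change. *Il6st*, the gene of Gp130, had 587 ± 120 CPM in control and 366 ± 19.4 in *Gp130* ecKO uteri (SD, n = 3), in RNA that includes tissues without recombination. Summed CPM of 14 epithelial markers without *Epcam* (keratins, claudins, *Cdh1*, *Esrp1*, *Grhl2* and others) ranged from 2507 to 4492 in control and from 6336 to 8341 in *Gp130* ecKO uteri, and 13 of the 14 were higher, none called. All 9 stromal markers were lower, with sums from 4316 to 5196 in control and from 2336 to 3044 in *Gp130* ecKO, none called. Less RNA per cell and fewer cells of a type cannot be told apart in whole uteri, and the part of these shifts in the results for the 10 genes was not tested. Gland markers summed to between 138 and 1068 CPM in 5 uteri and to 8729 in *Gp130* ecKO 1, mostly from *Prss29*.

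None of the 10 genes was called. Of the 10, 6 passed the filter on low counts, and over all tested genes 0.157% were called (26 of 16605). *Cd24a*, *Muc20* and *Muc16* had an unadjusted p under 0.05, as did 25.0% of all tested genes. *Cd24a* and *Muc20* did not overlap between the groups, both higher in *Gp130* ecKO uteri. Of all tested genes, 31.3% did not overlap, 15.7% with *Gp130* ecKO higher and 15.6% with it lower. *Muc20* alone was called by other tests, namely edgeR's exact test (7.46% of all genes called), its likelihood ratio test (7.93%) and DESeq2 (9.29%).

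**Figure D1:**
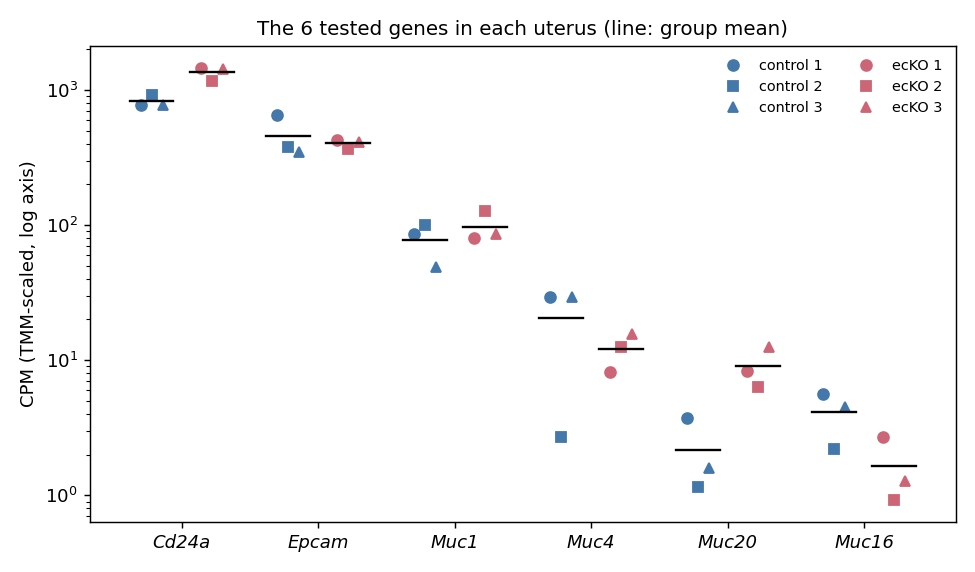
CPM of the 6 tested genes on a log axis, 1 point per uterus (circle, square and triangle for replicates 1, 2 and 3), with control in blue, *Gp130* ecKO in red and a line at each group mean. The *Cd24a* and *Muc20* points of the groups are apart, and the *Muc4* point of control 2, at 2.699, lies far below the 29.5 of the other controls.

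*Muc1*, the best known cell surface mucin of the uterus, was the most abundant mucin of the set and overlapped between the groups. It lies on chromosome 3 (chr3:89136354-89140688, plus strand, GRCm39, ENSMUSG00000042784). CPM values were 85.6, 99.99 and 48.9 across the controls and 79.5, 127 and 86.0 across the *Gp130* ecKO uteri. The groups overlapped, with control 3 the lowest and *Gp130* ecKO 2 the highest of the 6 uteri. The log2 fold change was 0.32 (standard error 0.30, 95% interval -0.38 to 1.02, adjusted p = 0.527), an interval that leaves room for a 2-fold rise but for no 2-fold fall. Over its 17 alternatives the log2 fold change stayed between 0.07 and 0.57.

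Per transcript length, *Muc1* stood at 35.8 to 71.9 TPM in control and 53.8 to 90.6 in *Gp130* ecKO uteri. By this measure it was below *Epcam* and *Cd24a* and above *Muc4* in every uterus. Further down the order, *Muc4* and *Muc20* overlapped in both groups, and *Muc20* and *Muc16* overlapped in control, while in *Gp130* ecKO uteri every value of *Muc16* was below every value of *Muc20*. By mean TPM in controls, *Cd24a* ranked 186, *Epcam* 368 and *Muc1* 2519 of all genes in the tables.

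The genes whose levels followed *Muc1* most closely over the 6 uteri were *Caskin2*, *Tmem51*, *Dyrk1b*, *Tspan5* and *Phyh*, with Pearson's r of log2(CPM + 0.5) between 0.960 and 0.9748 among 10250 genes with a mean of at least 10 CPM. As in *Muc1*, control 3 was the lowest and *Gp130* ecKO 2 the highest uterus for each of these genes. This is a ranking over 6 uteri of 2 genotype groups, and all genes of a uterus share its library. Between *Muc1* and the other 5 tested genes r ran from -0.67 with *Muc16* to 0.37 with *Cd24a*.

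*Muc16*, the very large cell surface mucin also known as CA125 and made by mesothelium as well as by epithelia of the female tract, was lower on average in *Gp130* ecKO uteri, with an overlap. It lies at chr9:18406745-18585826 on the minus strand, and its canonical coding sequence has 8478 codons in 78 exons. CPM values were 5.66, 2.20 and 4.47 across the controls and 2.71, 0.923 and 1.29 across the *Gp130* ecKO uteri. Control 2 was below *Gp130* ecKO 1, and the ranges crossed. Fitted over all uteri, the log2 fold change was -1.33 (standard error 0.54, 95% interval -2.58 to -0.08, unadjusted p = 0.0405, adjusted p = 0.182 from the quasi-likelihood test). It was negative under all 17 alternatives, from -1.88 to -0.97, with adjusted p between 0.111 and 0.395.

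Without control 2 the *Muc16* groups no longer overlapped, as for 45.6% of all tested genes, and the log2 fold change was -1.62 (adjusted p = 0.111). They were also apart without *Gp130* ecKO 1, as were 36.5% of all tested genes, with a log2 fold change of -1.88 (adjusted p = 0.258). In TPM the groups were apart even with control 2, at 3.39, 1.22 and 1.41 against 0.860, 0.340 and 0.290, as for 28.7% of tested genes. The ratio of group means was 0.248 in TPM and 0.399 in CPM. RSEM's weighted transcript length for *Muc16* was 2131, 2413 and 4473 bases in control and 4461, 4131 and 5649 in *Gp130* ecKO uteri, and these lengths overlapped. With 24 to 140 reads per uterus on a gene this large, the transcript mix behind the length rests on few reads. Mesothelial markers (*Msln*, *Upk3b*, *Lrrn4*, *Wt1* and *Upk1b*) were lower in 5 of 5 cases, none called, and summed to 172 to 263 CPM in control and 70.1 to 125 in *Gp130* ecKO. *Wt1*, which stroma also expresses, was apart between the groups and the other 4 overlapped. Their part in the level of *Muc16* was not tested.

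*Muc4* and *Muc20*, a pair of cell surface mucin genes on chromosome 16, had log2 fold changes of opposite sign in the deposited counts. Neither was called by the quasi-likelihood test. *Muc4* (chr16:32555015-32602754, plus strand) had 29.5, 2.699 and 29.5 CPM across the controls and 8.23, 12.6 and 15.5 across the *Gp130* ecKO uteri. Controls 1 and 3 were above every *Gp130* ecKO uterus and control 2 below them all. Between groups the log2 fold change was -0.76 (standard error 0.74, 95% interval -2.49 to 0.98, adjusted p = 0.543). This value depends on each control. Without control 2 the log2 fold change was -1.24 (adjusted p = 0.0670), without control 1 it was -0.35 and without control 3 it was -0.41. Over 16 alternatives it ran from -1.24 to -0.33, with adjusted p up to 0.839.

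*Muc20* (chr16:32597793-32617831, minus strand) had 3.76, 1.16 and 1.60 CPM across the controls. The *Gp130* ecKO uteri had 8.27, 6.35 and 12.4 CPM, all above every control. Its log2 fold change was 2.04 (standard error 0.51, 95% interval 0.85 to 3.22, unadjusted p = 0.00455, adjusted p = 0.0923), the largest of the 6 tested genes in size. The exact two-sided permutation test gave 0.1, the smallest p that 3 uteri against 3 allow. Adjusted p was 0.0119 with edgeR's exact test, 0.0103 with the likelihood ratio test and 0.00316 with DESeq2, and over all 16 alternatives it ran up to 0.246. The log2 fold change stayed between 1.74 and 2.76.

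**Figure D2:**
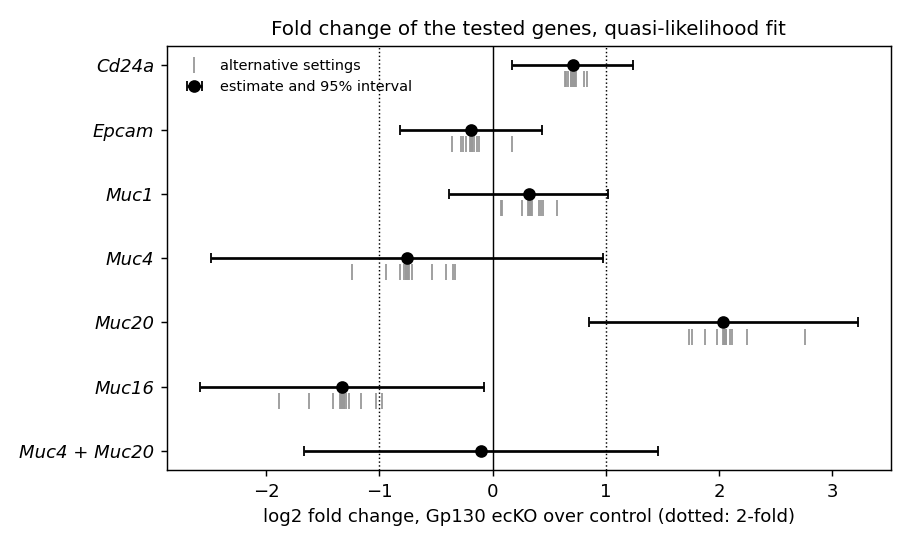
Log2 fold change of *Gp130* ecKO over control (x axis) for each tested gene and for the summed counts of *Muc4* and *Muc20*, with 95% intervals from the quasi-likelihood fit, grey ticks for the alternative settings and dotted lines at 2-fold. *Muc20* lies at 2.04 and *Muc16* at -1.33 with wide intervals, and the sum of *Muc4* and *Muc20* lies at -0.10.

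The counts of these neighbours were not independent. Their gene bodies overlap tail to tail over 4962 bases (chr16:32597793-32602754), of which 381 are exonic in both, 9.40% of the exonic bases of *Muc20* and 2.99% of those of *Muc4*. Of all 75-base stretches in the *Muc20* transcripts, 4.15% also occur in *Muc4*, only on the opposite strand. The expected counts of each gene were not whole numbers in any of the 6 uteri, but their sum was whole in all 6 (within 0.011 reads). RSEM therefore divided reads between them, although the library kit keeps strand, and whether strand was used in counting is not given in the sources used here.

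The summed expected counts of the pair were 821, 100 and 466 across the controls and 365, 492 and 675 across the *Gp130* ecKO uteri. *Muc20* took 11.3%, 30.5% and 5.09% of the sum in control and 50.3%, 33.5% and 44.4% in *Gp130* ecKO uteri. These shares were apart between the groups, with control 2 close to *Gp130* ecKO 2. Summed before the fit, the pair had a log2 fold change of -0.10 (standard error 0.67, 95% interval -1.67 to 1.46, adjusted p = 0.933), an alternative chosen after seeing the data. In each control most of the sum was *Muc4*, so the sum cannot show whether *Muc20* itself changed. How many of the divided reads belong to which gene was not tested, so the higher *Muc20* counts carry this limit.

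**Figure D3:**
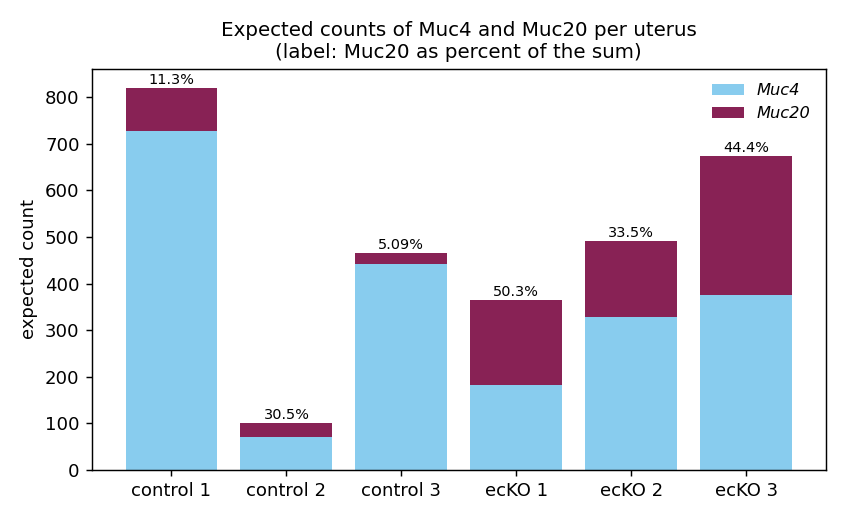
Expected counts of *Muc4* (light blue) and *Muc20* (purple) stacked for each uterus, with the share of *Muc20* in the sum printed above each bar. The share is between 5.09% and 30.5% in control and between 33.5% and 50.3% in *Gp130* ecKO uteri, while the sums overlap.

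Genes close to *Muc20* over the 6 uteri were *Cldn12*, a claudin, *Cdk7*, *Tapt1* and *Pcsk7*, with r between 0.973 and 0.992. These 4 were higher in every *Gp130* ecKO uterus than in any control, as *Muc20* was, so these r values largely restate the difference between groups. *Cldn12*, for example, had 34.4, 26.4 and 26.003 CPM in control and 42.1, 38.8 and 45.6 in *Gp130* ecKO. Among the tested members, *Cd24a* came closest to *Muc20* (r = 0.82).

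The other 4 mucins had at most 10 counts in any uterus and did not pass the filter on low counts. A count of 3 corresponds to 0.115 to 0.200 CPM in these libraries, the level that a count of 0 still allows, with counting error alone considered. *Muc13*, a cell surface mucin of the gut, had 0, 1 and 1 counts in control and 0 in each *Gp130* ecKO uterus. *Muc15*, another membrane mucin, had 0 in each control and 1, 0 and 5 in *Gp130* ecKO. The gel-forming mucin *Muc5b* had 1, 0 and 0 in control and 2, 0 and 0 in *Gp130* ecKO. *Muc6*, the gel-forming mucin of stomach and endocervix, was counted in every uterus, at 2, 3 and 10 in control and 5, 1 and 1 in *Gp130* ecKO. The highest TPM of any of these 4 genes in any uterus was 0.130, for *Muc15* in *Gp130* ecKO 3. Fitted with no filter, none of the 4 was called, with unadjusted p of the quasi-likelihood test between 0.101 and 0.720.

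*Cd24a* was the most abundant of the 10 genes and was higher in every *Gp130* ecKO uterus than in any control. It lies at chr10:43454280-43460264 on the plus strand. CPM values were 773, 924 and 772 across the controls and 1463, 1154 and 1417 across the *Gp130* ecKO uteri. The highest control and the lowest *Gp130* ecKO were both replicate 2, and the groups were apart. The log2 fold change was 0.71 (standard error 0.23, 95% interval 0.17 to 1.24, unadjusted p = 0.0162, adjusted p = 0.127), a 1.63-fold difference and so under the 2-fold limit. The exact permutation test gave its minimum of 0.1.

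*Cd24a* kept this direction under all 17 alternatives, with log2 fold changes from 0.64 to 0.83 and adjusted p from 0.00589 with DESeq2 to 0.329 without *Gp130* ecKO 1. Its weighted transcript length was 1600, 1703 and 1563 bases in control and 1802, 1811 and 1770 in *Gp130* ecKO uteri, and these were apart, as in 19.5% of the genes whose length varied. In TPM, which divides by that length, the groups stayed apart at 693 ± 59.95 in control and 1071 ± 92.9 in *Gp130* ecKO (SD, n = 3), a ratio of 1.54. Of its 75-base stretches, 1.04% also occur in *Gm6212* on the same strand and 1.46% in *Mtres1* on the opposite strand, and its counts were not whole in any uterus. Of the genes for CD24 binding partners, 3 of 4 were tested, none called. *Selp*, P-selectin of endothelium and platelets, went from 17.2, 5.86 and 5.0007 CPM in control to 2.17, 4.27 and 5.93, and all 3 overlapped between groups.

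*Epcam*, at a similar abundance in both groups, overlapped. It lies at chr17:87943407-87958557 on the plus strand. CPM values were 649.5, 379 and 348 across the controls and 429, 363 and 414 across the *Gp130* ecKO uteri. Control 1 was the highest of the 6 uteri and control 3 the lowest, so the *Gp130* ecKO values fell inside the control range. The log2 fold change was -0.19 (standard error 0.27, 95% interval -0.82 to 0.44, adjusted p = 0.678), which covers no 2-fold change in either direction. Without control 1 it was 0.17 (adjusted p = 0.684).

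Relative to epithelial marker RNA, *Epcam* and *Muc16* were lower in every *Gp130* ecKO uterus than in any control. Each gene was also taken as a percentage of the summed CPM of the 14 epithelial markers, a sum that was itself higher in every *Gp130* ecKO uterus. The sum includes *Krt8* and *Cdh1*, whose proteins the study reports at higher levels in the *Gp130* ecKO epithelium. The ratio is therefore not a level per epithelial cell. *Epcam* came to 17.3%, 8.44% and 13.9% of that sum in control and to 5.14%, 5.73% and 6.42% in *Gp130* ecKO uteri. The groups were apart, and the log2 ratio with a pseudocount of 0.5 was lower by 1.14 in the mean (exact two-sided permutation p = 0.1, the smallest possible). *Muc16* also was apart, at 0.151%, 0.0489% and 0.178% in control and 0.0325%, 0.0146% and 0.0199% in *Gp130* ecKO. This separation was common, since 71.6% of all tested genes were apart by the same ratio.

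By CPM, *Cd24a* was higher in every *Gp130* ecKO uterus than in any control, though not called. As a percentage of the marker sum it overlapped, at 20.6%, 20.6% and 30.8% in control and 17.5%, 18.2% and 21.96% in *Gp130* ecKO uteri. *Muc1* came to 2.28%, 2.23% and 1.95% in control and to 0.953%, 2.00% and 1.33% in *Gp130* ecKO, where *Gp130* ecKO 2 reached the control range. *Muc20* overlapped as well, since control 1 at 0.1005% lay level with *Gp130* ecKO 1 and 2 at 0.0992% and 0.1001%. *Muc4* came to 0.786%, 0.0601% and 1.18% in control and to 0.0986%, 0.198% and 0.241% in *Gp130* ecKO, with control 2 the lowest of the 6 uteri. The difference in its mean log2 ratio was -1.22, and when 1 control was left out it ranged from -2.48 (without control 2) to -0.45 (without control 3). The exact permutation p was 0.2 for *Muc1*, 0.4 for *Muc4* and 0.3 for both *Cd24a* and *Muc20*. With *Cdh1*, *Esrp1* and *Grhl2* alone as denominator, the count of genes apart was again 2. The share over all tested genes was taken for the 14-marker sum only, so this count has none beside it.

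**Figure D4:**
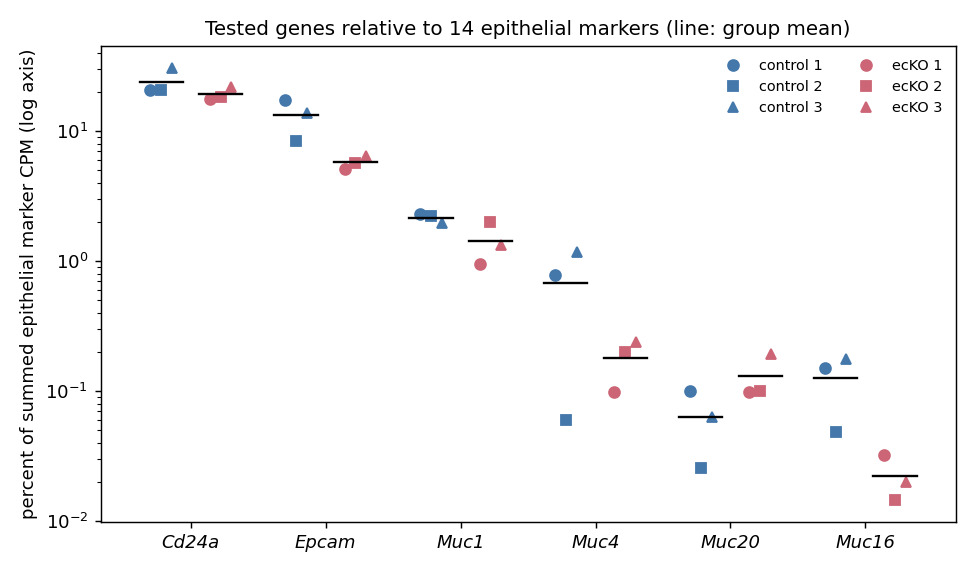
Each tested gene as a percentage of the summed CPM of 14 epithelial markers, on a log axis, 1 point per uterus and a line at each group mean. The *Epcam* points are between 8.44% and 17.3% in control and between 5.14% and 6.42% in *Gp130* ecKO uteri, and the *Cd24a*, *Muc1*, *Muc4* and *Muc20* points overlap.

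In a list of 15 other mucins and mucin-like or adhesion glycoproteins, 14 symbols were found and 5 tested. None of the tested genes carries a *Muc* symbol. Among them, 1 was called higher and none lower (0.157% of all tested genes called). Of the 5, 1 was apart with higher and 2 with lower levels in *Gp130* ecKO uteri (15.7% and 15.6% of all tested genes). *Ovgp1*, the oviductal mucin-like glycoprotein, was called, with 47.9, 85.3 and 50.6 CPM in control and 615, 1193 and 552 in *Gp130* ecKO uteri (log2 fold change 3.68, standard error 0.40, adjusted p = 0.0377). The ciliated-cell genes *Foxj1*, *Dnah5* and *Tekt1*, the other oviduct markers, each overlapped between the groups and were not called. Their log2 fold changes went both ways, at 2.11 (adjusted p = 0.160), -2.10 (adjusted p = 0.184) and -1.36 (adjusted p = 0.267). The endothelial sialomucin *Emcn* had 94.7, 62.7 and 42.5 CPM in control and 17.4, 29.5 and 27.8 in *Gp130* ecKO (-1.42 on the log2 scale, adjusted p = 0.0862). *Mcam*, an adhesion molecule of endothelium and smooth muscle, had a log2 fold change of -1.53 (adjusted p = 0.101). All 4 endothelial markers had negative log2 fold changes too, none called. Their sums were 299.9 to 725 CPM in control and 168 to 302 in *Gp130* ecKO uteri, and these ranges overlapped. The part of that shift in *Emcn* and *Mcam* was not tested.

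The enzymes that build mucin-type O-glycans showed no common direction. Of 35 tested, none was called, 17 had a positive log2 fold change and the median was -0.02, where the median over all tested genes was -0.05. Of these enzymes 7 were apart with higher and 7 with lower levels in *Gp130* ecKO uteri, against 15.7% and 15.6% of all tested genes. *Galnt10*, 1 of the enzymes that attach the first sugar, had 20.2, 46.0 and 26.1 CPM in control and 83.1, 106 and 74.2 in *Gp130* ecKO (1.51 on the log2 scale, adjusted p = 0.0764). The sialyltransferases *St3gal4* (-1.33, adjusted p = 0.0610) and *St3gal6* (-1.24, adjusted p = 0.0766), which cap glycans with sialic acid, were apart in the lower direction, and *St6galnac2*, which adds sialic acid to the core sugar, in the higher (0.72, adjusted p = 0.0951). *St6galnac2* is listed under 2 identifiers, and the less abundant of them had a log2 fold change of -1.90.

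Among genes of mucin packaging and of secretory cells, 6 of 12 were tested, none was called, and the median log2 fold change was 1.39. Of the 6, 3 were apart with higher and 0 with lower levels in *Gp130* ecKO uteri, against 15.7% and 15.6% of all tested genes. *Clca1*, a protease secreted with mucus, had 1.21, 1.20 and 0.267 CPM in control and 14.5, 159 and 276 in *Gp130* ecKO uteri. Its log2 fold change of 7.31 had a standard error of 1.16 and an adjusted p of 0.0548. *Fcgbp*, a mucus protein, had 49.4, 125 and 21.7 CPM in control and 378, 307 and 370 in *Gp130* ecKO (2.42 on the log2 scale, adjusted p = 0.0862). *Spdef*, a transcription factor of goblet cells, overlapped between groups (1.65, adjusted p = 0.156), and *Creb3l4* was apart at a log2 fold change of 0.77 (adjusted p = 0.233). Both tested markers of squamous epithelium, *Krt13* (log2 fold change 3.54, adjusted p = 0.0677) and *Trp63* (1.46, adjusted p = 0.119), were apart with higher levels in *Gp130* ecKO uteri and not called. Of the untested markers, *Krt5*, a basal keratin of that tissue, was at 0 in 5 of 6 uteri, *Krt14* was at most 0.324 CPM, and *Krt6a* had 0.121, 0 and 3.27 CPM in control and 0 in each *Gp130* ecKO uterus. The 5 markers of that list had summed CPM of 1.27 to 4.601 in control and 3.11 to 7.30 in *Gp130* ecKO uteri.

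**Figure D5:**
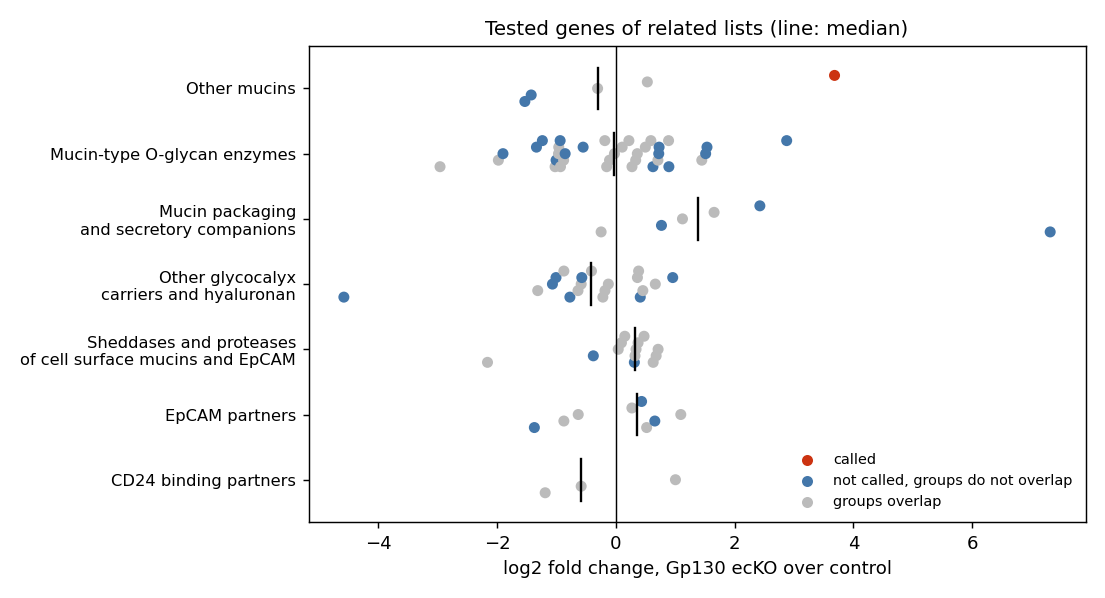
Log2 fold change of *Gp130* ecKO over control (x axis) for each tested gene of 7 related lists (rows), in red where called, in blue where not called but with groups apart, and in grey where the groups overlap, with a line at each list's median. *Ovgp1* at 3.68 is the called gene, *Clca1* lies at 7.31 and the O-glycan enzymes spread to both sides of a median of -0.02.

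Other carriers of the glycocalyx and hyaluronan enzymes numbered 21, of which 19 were tested and none called. Here 6 of 19 log2 fold changes were positive, against 7824 of 16605 over all tested genes, and the median was -0.41. *Has1*, a hyaluronan synthase, had 2.02, 0.694 and 3.87 CPM in control and 0.181, 0.0385 and 0.0415 in *Gp130* ecKO uteri (log2 fold change -4.58, adjusted p = 0.0636). *Gp130* ecKO 2 and 3 were below the CPM of 3 counts in their libraries (0.115 and 0.124), so the size of this change is uncertain. The sialomucins *Podxl* (-1.01, adjusted p = 0.117) and *Cd34* (-0.77, adjusted p = 0.141), both also endothelial, and the syndecan *Sdc1* (-0.57, adjusted p = 0.139) were apart in the lower direction. In the whole list 2 genes were apart with higher and 5 with lower levels in *Gp130* ecKO uteri, against 15.7% and 15.6% of all tested genes.

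The list of proteases that shed or cleave surface mucins and EpCAM, which also holds the protease inhibitors *Spint1* and *Spint2*, was tested in full, 13 of 13, and none was called. Its median log2 fold change was 0.32, with 11 of 13 positive, against 7824 of 16605 over all tested genes. *Adam10*, a sheddase, had 202, 180 and 181 CPM in control and 213, 233 and 253 in *Gp130* ecKO uteri, apart but small in size (0.31, adjusted p = 0.249). *Mmp14*, a membrane-bound metalloprotease, was apart in the lower direction (-0.38, adjusted p = 0.392). *Mmp7* (-2.16, adjusted p = 0.242), *Adam9* (0.34, adjusted p = 0.279) and *Psen2* (0.68, adjusted p = 0.282) overlapped. All 8 genes for partners of EpCAM were tested, none called. Of the 8, 2 were apart with higher and 1 with lower levels in *Gp130* ecKO uteri, against 15.7% and 15.6% of all tested genes. *Cd9*, a tetraspanin, was apart at 749, 703 and 589 CPM in control and 1192, 1033 and 995 in *Gp130* ecKO (0.66, adjusted p = 0.129). *Ctnnb1*, β-catenin, also was apart with higher values (0.43, adjusted p = 0.326) and *Fhl2*, which binds the intracellular part of EpCAM, with lower values (-1.37, adjusted p = 0.103), while *Cd44* overlapped (-0.87, adjusted p = 0.257).

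The 250 bases before each canonical start site were searched on both strands for TTCNNNGAA, a form bound by STAT factors that act after Gp130. The letters occurred in 1 of the 10 genes, *Muc5b*, and in 7.70% of 21770 such windows. The palindromic estrogen response element occurred in none of the 10 and in 0.0505% of all windows. TGTTCT, the core hexamer of a progesterone response element, occurred for *Muc16* alone (14.3% of all), and TATAAA for *Muc1* alone (11.9% of all). These matches describe letters in short windows and are not binding sites.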

How the data were processed

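RNA of whole uteri (3 control, 3 *Gp130* ecKO) was read from strand-specific libraries. Per the labels and methods, the authors trimmed reads with fastp 0.23.2, mapped them to GRCm39 with STAR 2.7.10a and estimated counts with RSEM 1.3.3, which divides a read that matches several genes between them. The authors deposited expected counts, not normalized, with TPM and FPKM scaled for length and depth; FPKM was not used. The annotation version is not given in the sources used here. GENCODE M39 (GRCm39) gave symbols, coordinates and sequences and covers 56017 of 56748 identifiers.

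After rounding, expected counts were fitted with edgeR 4.0.16 in R 4.3.3 (filterByExpr, TMM, glmQLFit without the legacy setting, glmQLFTest). Each standard error was derived from the fold change and its F statistic. Alternatives were edgeR's exact, likelihood ratio and legacy tests, DESeq2 1.42.0, other scalings and filters, unrounded counts, a replicate block and each uterus left out. No pair of libraries within a group had nearly identical counts. Single values were compared by exact two-sided permutation of log2(CPM + 0.5). The members and lists were chosen with earlier results of these data known. Named genes are all 10 members, the called genes of each list or otherwise up to 4 with the smallest p and a mean CPM of at least 1, and the genes most like *Muc1* (5) and *Muc20* (4 of 5, as 1 is not reported here). *Emcn*, *Mcam*, *Gm6212*, *Mtres1*, *Upk3b*, *Prss29*, *Foxj1*, *Dnah5*, *Tekt1*, *Krt5*, *Krt6a*, *Krt14*, *Mmp14*, *Spint1* and *Spint2* were named beside a result after their values were seen. Smooth muscle, B cell, red cell, macrophage and luminal marker lists were also read, and none of their genes was called. Depth ranged from 13960748 to 25906443 counts, and floors cover counting error only, while the intervals of fold changes include the spread between uteri.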

Additional observations from a re-analysis of the deposited data

How the results depend on the processing

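None of the 10 genes was called by the quasi-likelihood test, and 1, *Muc20*, was called with the exact test, the likelihood ratio test and DESeq2; leaving out each uterus in turn gave 0 throughout. Over all genes the same change took the 26 calls to 1239, 1317 and 1542, the legacy test gave 7, no filter 105, and leaving out 1 uterus between 1 and 892, the 892 without control 2. The number of genes apart between the groups was 2, ranged from 2 to 4 when 1 uterus was left out (4 without control 2, which adds *Muc4* and *Muc16*, where 36.5% to 45.9% of all tested genes were apart with 1 uterus left out and 45.6% without control 2), and was 1 with *Muc4* and *Muc20* summed. Relative to epithelial markers it was 2, where 71.6% of all tested genes were apart. It was 2 to 3 when 1 uterus was left out, for which the share over all genes was not taken. Of 100 fold changes of single genes under 17 alternatives, 99 kept their direction, and *Epcam*, which ranged from -0.36 to 0.17 when 1 uterus was left out, turned to 0.17 without control 1. The replicate block called 6 genes, none of the 10, with *Muc20* at 2.11 (adjusted p = 0.112) and *Muc4* at -0.33. By their labels, same-numbered samples share only that number. The deviations of same-numbered uteri correlated at 0.10, 0.07 and -0.20, and those of other pairs at -0.31 to 0.22. With so few uteri these values cannot decide whether the numbers mark pairs. The causes of these changes were not tested. Low counts, 24 to 140 reads per uterus for *Muc16* and 23.7 to 300.03 expected counts for *Muc20*, limit both genes. The other 4 mucins entered only the fit with no filter, and none was called there.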
